A study of Homo sapiens with 54 samples.

Results

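The heat shock proteins and their J-domain co-chaperones were followed through every perturbation of the paralogous splicing factors TRA2A and TRA2B in 4 established human cancer cell lines. The members were chosen by name: the DNAJA, DNAJB and DNAJC families, the HSPA, HSPB and HSP90 families, HSPD1, HSPE1, HSPH1 and the transcription factors HSF1 and HSF2. Of 55906 gene rows in the expression tables, 85 carried such a name, 13 of these were pseudogenes and were left out, and 72 genes remained. They were grouped by place and family into 15 chaperones of the endoplasmic reticulum, 12 other DNAJC, 10 mitochondrial, 9 cytosolic HSP70, 8 other DNAJB, 8 small HSP, 3 HSP110 and 3 other DNAJA genes, 2 cytosolic HSP90 genes and 2 heat shock factors.

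RNA was sequenced from poly(A)-selected, strand-directional libraries, with 3 libraries in each of 18 groups. A549 and NCI-H23, both lung cancer lines that stably carry the repressor fusion Zim3-dCas9 for CRISPR interference and were sorted for it, received guides against control loci (Control KD), TRA2A (TRA2A KD), TRA2B (TRA2B KD) or both genes (TRA2A/B DKD). LN229 and LN319, both glioma lines, carried an overexpressed luciferase (Luc) or TRA2B cDNA (TRA2B-OE) and received Cas9 with guides against control loci or TRA2A, and in the Luc cells also TRA2B, giving Luc Control KO, Luc TRA2A KO, Luc TRA2B KO, TRA2B-OE Control KO and TRA2B-OE TRA2A KO. All cells were collected within days of lentiviral transduction of the guides as mixed populations, so that a knockout group can still hold unedited copies, and nothing in the labels says whether replicates were separate cultures, so p-values measure the spread between these libraries only. The study had set out TRA2A-dependent lines (NCI-H23, LN319) against TRA2A-independent lines (A549, LN229), and each perturbation was compared here with the control of its own line.

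HSP70 proteins bind exposed hydrophobic stretches of unfolded proteins in a cycle driven by ATP, J-domain proteins of the DNAJ families bring clients to them and speed ATP hydrolysis, and HSP110 proteins exchange the nucleotide. HSP90 matures kinases and receptors, the small HSPs hold unfolded proteins, and the HSP60 chamber HSPD1 with its lid HSPE1 folds proteins in mitochondria. Heat shock factor HSF1 drives the cytosolic genes of the family when unfolded proteins gather in the cytosol, while the unfolded protein response drives those of the endoplasmic reticulum (ER), so that cytosolic, mitochondrial and ER members are often read as separate reporters of stress.

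Expression was read as TPM (transcripts among all transcripts of a library, scaled to a fixed total), a level per transcript length that can be compared between genes. Each library's TPM summed to between 928908 and 964610, and the TPM keeps no read depth, so the counting error behind low values is unknown, although the study's methods state a minimum sequencing depth for all libraries. Genes encoded on the mitochondrial genome took 6.02% to 33.4% of the TPM, and no 2 libraries held identical values. Differences are log2 fold changes of TPM plus a pseudocount of 0.1 after scaling libraries to each other, with the standard error (SE) and a p-value from limma with Benjamini-Hochberg adjustment over all genes tested, and a gene is called up or down where the adjusted p was under 0.05. Library values in the text and plots are TPM without that scaling, so a fold change can differ a little from the ratio of the TPM.

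The targeted genes moved with their labels in most groups. TRA2A fell in every knockdown and Luc knockout aimed at it, with log2 fold changes of -3.28 (A549 TRA2A KD), -3.90 (NCI-H23 TRA2A KD), -0.65 (LN229) and -1.55 (LN319), and TRA2B fell with -3.27, -3.35, -0.64 and -1.61 in the matching groups. In the DKD, the log2 fold change of TRA2A was -2.92 in A549 and -2.44 in NCI-H23, and that of TRA2B -2.71 and -2.13. In LN229 TRA2B-OE cells the TRA2A KO left 69.9 ± 5.20 TPM against 80.2 ± 4.85 (SD, n = 3 in each group throughout) of TRA2A, a log2 difference of -0.22 that did not pass the test (adjusted p = 0.0793, limma), so the LN229 TRA2B-OE TRA2A KO is named by its label only. Both A549 and NCI-H23 expressed epithelial markers (6 of 6 and 5 of 6 at or above 1 TPM in the Control KD). In the NCI-H23 Control KD, EPCAM, CDH1 and KRT7 lay only between 1.02 and 4.49 TPM. All 4 mesenchymal markers had a mean at or above 1 TPM in both Control KDs (summed 1299 to 1602 and 1616 to 1644 TPM). LN229 expressed 6 of 6 neural or glial markers, and LN319 expressed 3 of 6 with OLIG2 under 0.1 TPM. LN319 also expressed 5 of the 6 epithelial markers (summed 357 to 366 TPM in the Luc Control KO, against 9074 to 9294 TPM in the A549 Control KD), and LN229 expressed 3 of them. A549 Control KD replicate 3 stood apart from its group, with a scaling factor of 1.20 and a median correlation with the other A549 libraries of 0.835. LN229 Luc Control KO replicate 1 also stood apart, since its summed neural or glial markers (1391 TPM) lay far above the 684 TPM at the low end of its group and near the Luc TRA2B KO libraries (1505 to 1608 TPM). Where leaving out one of these 2 libraries changed a call or moved a called value by over 1.5 times, the value without it is given as well. The glial markers S100B and FABP7 were also highest in replicate 1 of every other LN229 group.

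A small set of genes made up most of the chaperone mRNA. In the Control KD of A549 the highest were HSP90AA1, HSPA8 and HSP90AB1, at 1355 ± 422, 1126 ± 124 and 1070 ± 6.84 TPM, and the 6 highest members held 64.9% of the members' summed TPM. NCI-H23 was led by HSP90AB1 at 1924 ± 117 TPM, ahead of HSPA8 at 1103 ± 16.6 TPM. In the mean, LN229 was led by the ER chaperone HSP90B1 (GRP94) at 870 ± 136 TPM, although the small heat shock protein HSPB1 at 825 ± 27.6 TPM and HSP90AB1 at 762 ± 65.9 TPM lay within its spread. HSP90B1 led only in Luc Control KO replicate 1, which stood apart, at 1026 TPM. In replicates 2 and 3 it lay at 793 and 789 TPM, below HSPB1 (851 and 829 TPM) and HSP90AB1 (802 and 797 TPM). LN319 was led by HSP90AA1 at 978 ± 18.3 TPM. Across libraries all 72 members together held 0.642% to 1.20% of the TPM. In all, 57 members passed the filter on low values (4 or more libraries of the line at 1 TPM or above) in all 4 lines, 6 passed it in some lines and 9 in none, where the highest value of any library was 2.07 TPM. Those 9 were DNAJA4, DNAJB7, DNAJB8, DNAJB13, HSPA12B, HSPB2, HSPB3, HSPB7 and HSPB9, so the text below is about genes that these lines express.

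Summed over all 72 members, chaperone mRNA lay below its control in the A549 DKD and above it in the NCI-H23 DKD. The sum was 7844 ± 105 TPM in the A549 DKD against 8793 ± 538 TPM in its Control KD, and 10866 ± 476 TPM in the NCI-H23 DKD against 8936 ± 404 TPM. In neither line did the 3 DKD libraries overlap the 3 control libraries, although an exact permutation test of 3 against 3 libraries, two-sided, can give no p under 0.1. The sum also lay above its control without overlap in the NCI-H23 TRA2B KD, at 9997 to 10156 TPM against 8474 to 9223 TPM, in the LN319 Luc TRA2A KO, at 7693 to 7854 against 7308 to 7478 TPM, and in the LN319 TRA2B-OE TRA2A KO, at 7043 to 7336 against 6619 to 6948 TPM. These sums are of TPM without the scaling between libraries, which on that scale put the median log2 difference of all genes at 0.12 in the NCI-H23 TRA2B KD and 0.17 in the NCI-H23 DKD. Cytosolic HSP70 and HSP90 made up most of the NCI-H23 difference, at 2354 ± 139 against 1393 ± 18.9 TPM and 3362 ± 236 against 2641 ± 90.5 TPM. In LN319 the sum was 6241 ± 51.8 TPM in the Luc TRA2B KO and 6757 ± 171 TPM in the TRA2B-OE Control KO against 7404 ± 87.2 TPM in the Luc Control KO, with no overlap in either. Mitochondrially encoded genes, which share the same total, took 19.3% ± 1.16 of the TPM in the TRA2B KO against 12.5% ± 0.378, and their part in the lower sum was not tested. In the lung lines that share was 20.9% ± 2.99 (A549 DKD) against 19.4% ± 1.90, and 22.4% ± 5.08 (NCI-H23 DKD) against 26.7% ± 4.64. In the NCI-H23 TRA2B KD the share was 18.4% ± 0.835 against the same 26.7% ± 4.64. Its part in the higher sum of that group was not tested.

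**Figure D1:**
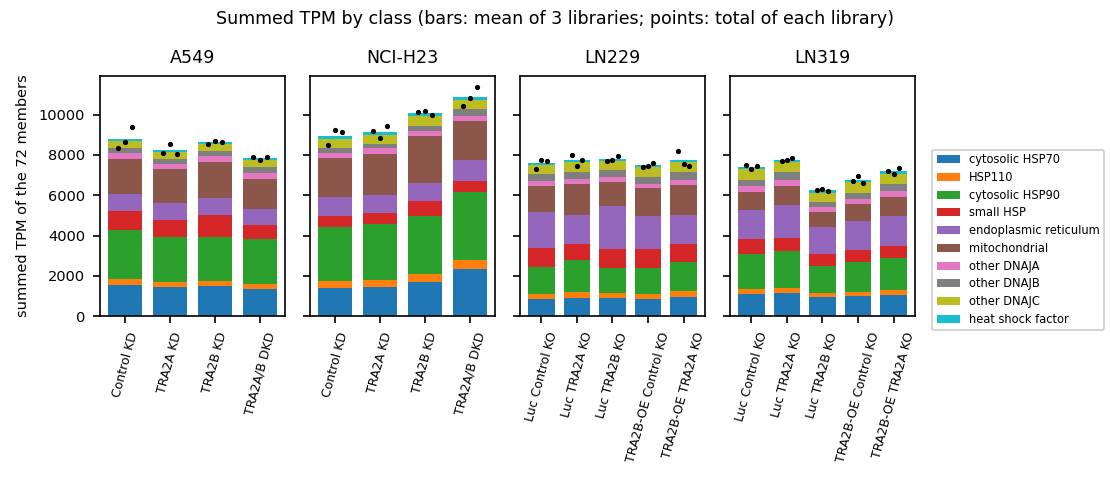
Summed TPM of the 72 chaperone genes (vertical axis) in every group of the 4 lines (horizontal axis). Bars stack the mean of 3 libraries by class and black points are the totals of single libraries. The NCI-H23 DKD has the highest total at 10866 TPM and the LN319 Luc TRA2B KO the lowest at 6241 TPM.

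Depleting either paralog alone in the lung lines moved no chaperone past the test. Of 59 members tested in A549, 0 were called in the TRA2A KD (0.207% of all genes were called) and 0 in the TRA2B KD (0.341%), with 7 and 6 members at an unadjusted p under 0.05. Among all 16405 genes tested in A549, 1851 and 2221 had such a p-value. Of 61 members tested in NCI-H23, 0 were called in the TRA2A KD (0.976% of all genes) and 0 in the TRA2B KD (0.196%), with 5 and 7 members at an unadjusted p under 0.05. Among all 16293 genes tested in NCI-H23, 2218 and 1729 had such a p-value. The core chaperones (HSPA1A, HSPA1B, HSPA8, HSPA5, HSPA9, HSP90AA1, HSP90AB1, HSP90B1, HSPD1, HSPE1, HSPH1, HSPB1, DNAJB1, HSF1 and HSF2) lay between -0.22 and 0.40 on the log2 scale in the A549 TRA2A KD and between -0.11 and 0.21 in the NCI-H23 TRA2A KD. The NCI-H23 TRA2B KD came nearest to a call at HSPA1A, which lay at 323, 305 and 272 TPM against 201, 200.1 and 198 TPM in the Control KD. The groups did not overlap, and the log2 difference of 0.47 missed the threshold (adjusted p = 0.0826, limma). With TPM as deposited 1 member was called in that comparison.

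**Figure D2:**
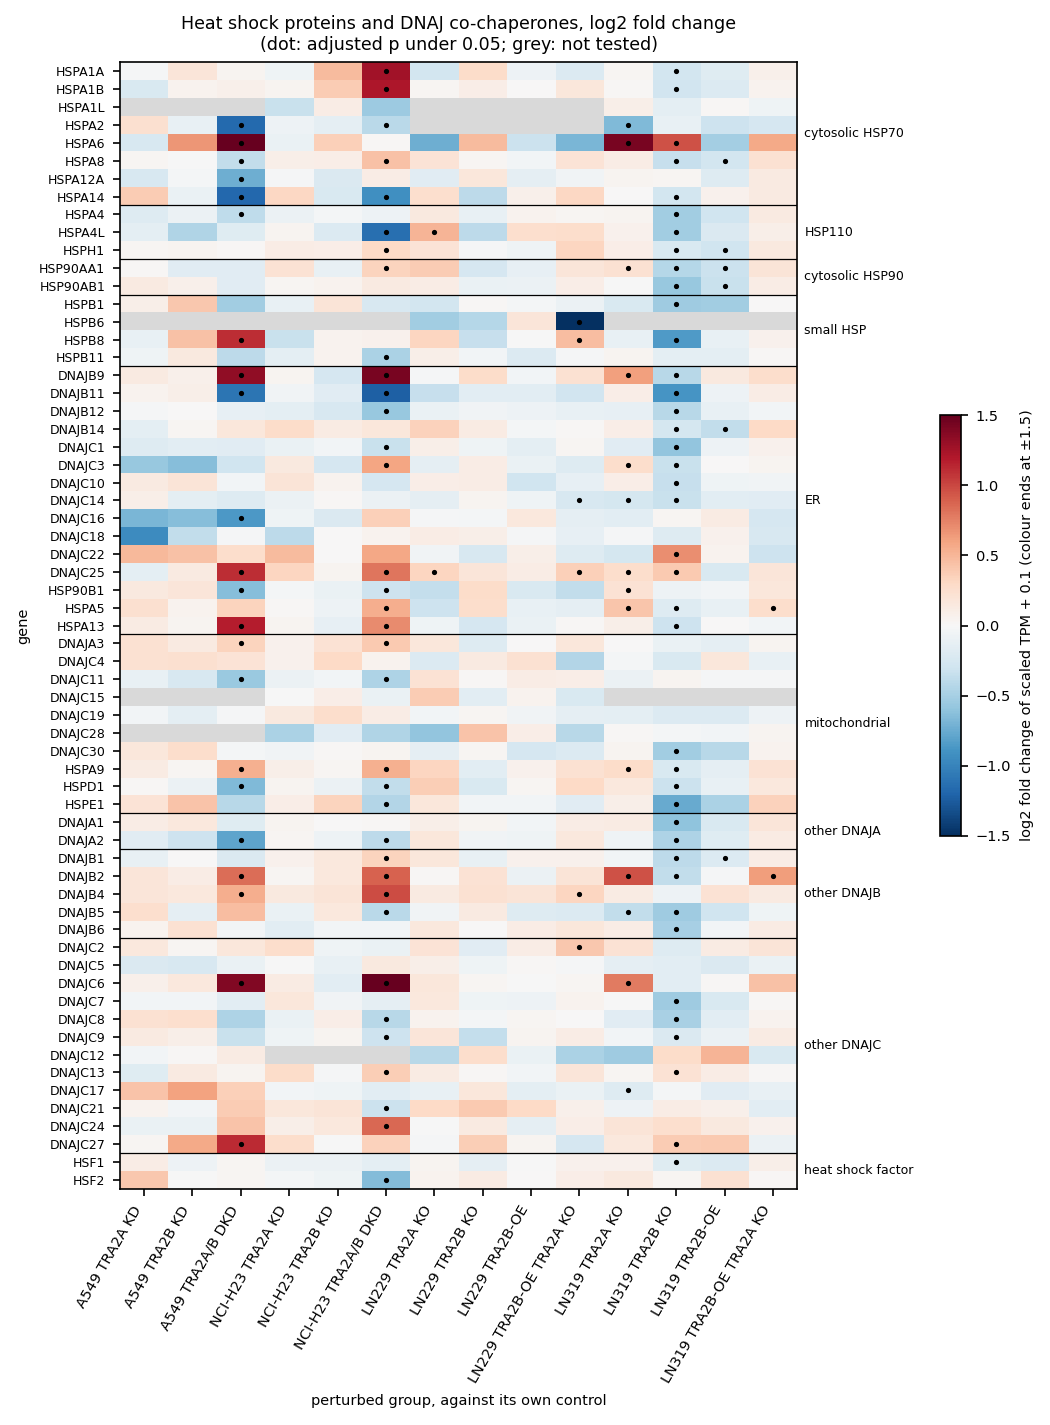
Log2 fold change (colour, ending at ±1.5) of every chaperone gene that passed the filter on low values in at least 1 line (rows, by class) in the 14 comparisons of a perturbed group with its own control (columns). Black dots mark an adjusted p under 0.05 (limma) and grey cells genes that were not tested. Dots are dense in both lung DKDs and the LN319 TRA2B KO, and absent from the 4 single knockdowns of the lung lines.

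Loss of both paralogs together moved chaperones in both directions in both lung lines. In the A549 DKD 11 of 59 members were called up and 11 down (18.6% each way), where 14.3% of all genes were called up and 16.3% down, and 7 up and 3 down lay past a log2 fold change of 1 (7.53% and 5.27% of all genes). In the NCI-H23 DKD 18 of 61 were called up and 17 down (29.5% and 27.9%), where 20% of all genes were called up and 23.2% down, and 4 up and 2 down lay past 1 (7.08% and 5.74%). The median log2 fold change of the members was -0.03 in A549 and 0.02 in NCI-H23, beside 0.03 and 0.02 over all genes. With TPM as deposited the calls were 12 up and 8 down in A549 and 21 up and 8 down in NCI-H23, where the median of all genes lay at 0.11 and 0.17. Without A549 Control KD replicate 3 the calls were 12 up and 18 down, and 21 of the 22 called with it were among them.

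Of 58 members tested in both lung lines, 16 were called in both DKDs. The 8 called up in both were DNAJA3, DNAJB2, DNAJB4, DNAJB9, DNAJC6, DNAJC25, HSPA9 and HSPA13, which is 72.7% of the members called up in A549 and 44.4% of those called up in NCI-H23. The 7 called down in both were DNAJA2, DNAJB11, DNAJC11, HSP90B1, HSPA2, HSPA14 and HSPD1, or 63.6% and 41.2%. The share of all genes called alike in both DKDs was not counted, so this overlap is not shown to be particular to chaperones. The remaining gene, HSPA8, was called down in A549 and up in NCI-H23. Another 6 members were called in A549 but not in NCI-H23 and 19 in NCI-H23 but not in A549, and whether those effects differ between the lines was not tested.

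**Figure D3:**
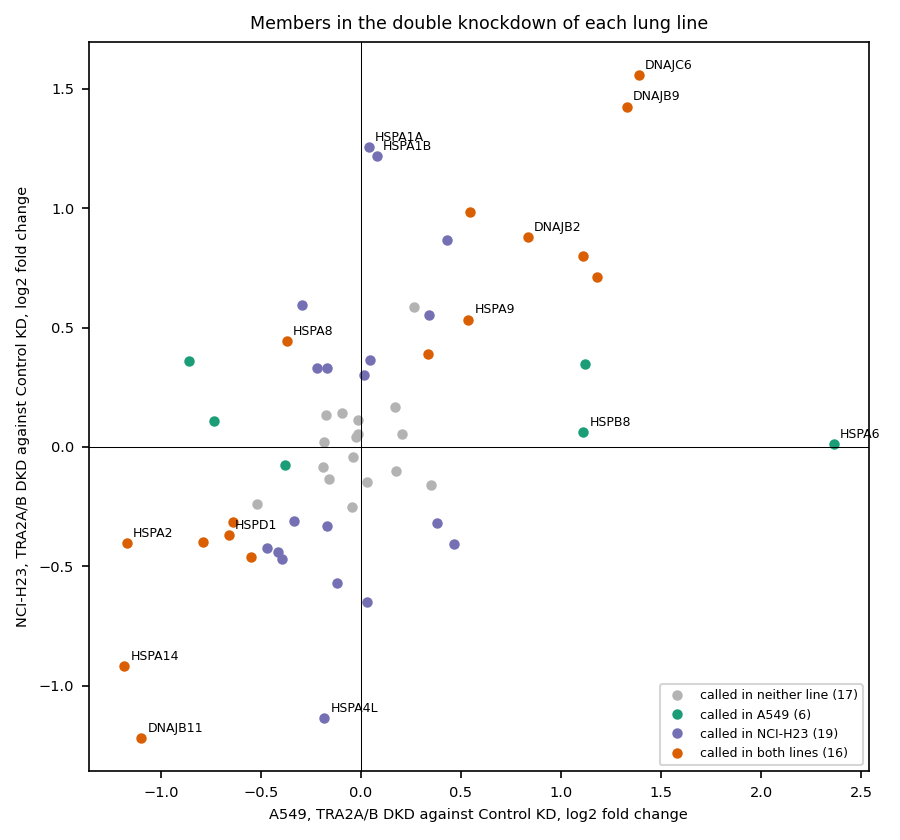
Log2 fold change in the DKD of A549 (horizontal axis) and of NCI-H23 (vertical axis), each against its own Control KD, for the 58 chaperone genes tested in both lines. Colours give where a gene was called (17 in neither line, 6 in A549, 19 in NCI-H23 and 16 in both). HSPA6 sits far right on the zero line of NCI-H23, while HSPA1A and HSPA1B sit high on the zero line of A549.

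Different inducible cytosolic HSP70 genes were called in the 2 lung lines, and the difference between the lines was not tested. HSPA1A and HSPA1B, the near-identical genes for the main stress-inducible HSP70, rose in the NCI-H23 DKD, whereas HSPA6, a strictly inducible HSP70, rose in the A549 DKD. HSPA6 was low throughout and was tested in A549 only because it was high in the DKD, so its call there is no independent support. The 250 bases before the RefSeq start of these 3 genes are shown because they carry the letters of the heat shock element in different numbers. That element was searched as facing pairs of the units GAA and TTC with 2 bases between them (GAANNTTC or TTCNNGAA), as 3 alternating units (GAANNTTCNNGAA or TTCNNGAANNTTC, which contain 2 overlapping pairs), and beside it the CCAAT box, all on both strands. In capitals are the facing pairs and CCAAT or its reverse complement ATTGG. The sequences are RefSeq's on GRCh38.p14, written 5′ to 3′ along the gene, from chr6:31815293-31815542 (plus strand, HSPA1A), chr6:31827488-31827737 (plus, HSPA1B) and chr1:161524290-161524539 (plus, HSPA6).
HSPA1A: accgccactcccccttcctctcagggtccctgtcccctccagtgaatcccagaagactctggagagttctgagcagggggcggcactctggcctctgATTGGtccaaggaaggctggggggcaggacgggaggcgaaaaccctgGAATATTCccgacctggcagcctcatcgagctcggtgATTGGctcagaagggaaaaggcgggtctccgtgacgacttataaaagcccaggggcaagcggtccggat
HSPA1B: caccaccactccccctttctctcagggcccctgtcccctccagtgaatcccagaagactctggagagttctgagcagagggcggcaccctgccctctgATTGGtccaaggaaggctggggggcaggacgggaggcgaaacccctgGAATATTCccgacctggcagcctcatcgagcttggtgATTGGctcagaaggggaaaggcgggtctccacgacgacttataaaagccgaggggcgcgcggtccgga
HSPA6: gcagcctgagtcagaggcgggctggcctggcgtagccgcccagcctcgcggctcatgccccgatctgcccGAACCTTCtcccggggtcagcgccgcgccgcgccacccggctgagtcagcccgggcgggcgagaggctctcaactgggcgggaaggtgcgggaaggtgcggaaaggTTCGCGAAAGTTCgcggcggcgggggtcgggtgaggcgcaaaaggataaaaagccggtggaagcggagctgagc
HSPA1A and HSPA1B each held 1 facing pair and 2 CCAAT boxes, and after a shift of 1 base their stretches shared 235 of 249 bases (94.4%). HSPA6 held 3 facing pairs, 2 of them overlapping in 1 run of 3 alternating units, and no CCAAT box, and the same stretch of the constitutive HSPA8, which lies inside the gene as Gencode v44 draws it, held 4 facing pairs, 2 such runs and 2 CCAAT boxes. In the 300 bases around each start (250 before and 50 after), facing pairs stood in 23 of 86 promoters of the 65 members with a RefSeq entry (26.7%) against 13.5% of all 35116 promoters, and 3 alternating units in 7 (8.14%) against 0.49%. The CCAAT box stood in 38.4% of the members' promoters and 34.6% of all. These are matches of letters, not measured binding sites.

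HSPA1A lay at 201, 200.1 and 198 TPM in the 3 NCI-H23 Control KD libraries and at 491, 551 and 552 TPM in the DKD. HSPA1B lay at 40.3, 46.2 and 50.3 TPM and at 114, 118 and 123 TPM. All 3 DKD libraries of NCI-H23 were above all controls for both genes. The log2 fold changes were 1.25 (SE 0.09, adjusted p = 1.46e-06) and 1.22 (SE 0.08, adjusted p = 1.5e-06) by limma, and each held in all 6 fits that left out 1 library. In A549 the same genes lay at 257 ± 9.67 against 237 ± 17.4 TPM and 111 ± 6.19 against 101 ± 19.8 TPM, with overlapping libraries and log2 fold changes of 0.04 and 0.08 (adjusted p = 0.826 and 0.758, limma). In Gencode v44 transcripts 76% of the distinct 31-base stretches of HSPA1A also occur in HSPA1B, so how reads were divided between the 2 genes is uncertain, while their sum does not depend on it. The sum rose from 245 ± 3.49 to 649 ± 39.2 TPM in NCI-H23 and was 338 ± 36.3 and 368 ± 13.1 TPM in A549.

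HSPA6 lay at 0.573, 0.468 and 0.822 TPM in the A549 Control KD and at 4.33, 3.63 and 3.32 TPM in the DKD, a log2 fold change of 2.36 (SE 0.38, adjusted p = 0.000954, limma). It passed the filter on low values with 4 A549 libraries, of which 3 were the DKD libraries, so it was tested because it was high there. The groups did not overlap, yet the level stayed low, and 57.1% of its 31-base stretches also occur in other genes, mostly the pseudogene HSPA7. In NCI-H23 the HSPA6 level was 2.12, 1.31 and 1.76 TPM in the Control KD and 1.62, 2.21 and 1.95 TPM in the DKD. These libraries overlapped.

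HSPA8 (HSC70), the constitutive HSP70 of the cytosol, was called in opposite directions in the DKD of the 2 lung lines. In A549 it lay at 1056, 1054 and 1269 TPM in the Control KD and 939, 913 and 900 TPM in the DKD (log2 fold change -0.37, SE 0.08, adjusted p = 0.00671, limma). In NCI-H23 it lay at 1094, 1122 and 1093 TPM and at 1561, 1754 and 1705 TPM (0.44, SE 0.07, adjusted p = 0.000696, limma). The groups did not overlap in either line. Without A549 Control KD replicate 3, its highest control, the fall stayed past the threshold, as it did in all 6 fits that left out 1 library, and its adjusted p was 0.0858 (the highest over its alternatives) when the other 2 groups were kept out of the fit.

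HSPA14 and HSPA2, relatives of the HSP70s, fell in both lines. HSPA14, which sits at the ribosome with a J-domain partner, lay at 28.8, 26.7 and 26.1 TPM in the A549 Control KD and at 13.5, 10.0 and 14.7 TPM in the DKD (log2 fold change -1.18, adjusted p = 0.000426, limma). In NCI-H23 it lay at 27.8, 28.5 and 28.7 TPM and at 15.4, 16.3 and 18.4 TPM (-0.92, adjusted p = 4.87e-06, limma). HSPA2, an HSP70 best known from the testis, fell from 59.5 ± 11.5 to 27.6 ± 1.69 TPM in A549 (-1.17, adjusted p = 8.9e-06, limma). Its fall in NCI-H23 was from 12.1 ± 1.26 to 10.2 ± 0.0293 TPM (-0.40, adjusted p = 0.00537, limma) and missed the threshold with TPM as deposited, where it was -0.25 (adjusted p = 0.0807, the highest over its alternatives). Neither gene's DKD libraries overlapped its controls in either line. In A549 HSPA12A, an atypical HSP70, was also called down (-0.74, adjusted p = 0.0454, limma), with overlapping libraries, and the call was lost without Control KD replicate 3 (-0.53, adjusted p = 0.114) or DKD replicate 3 (-0.44, adjusted p = 0.156, the highest over its alternatives).

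Of the other core genes that HSF1 is known to induce, DNAJB1, HSPH1 and HSP90AA1 rose in NCI-H23 and did not pass the test in A549, HSPD1 and HSPE1 were called down in NCI-H23 and HSPD1 in A549, and HSPB1 was called in neither line. In the NCI-H23 DKD the J-domain protein DNAJB1 (HSP40), a partner of inducible HSP70, rose from 57.5 ± 1.92 to 80.6 ± 3.67 TPM (log2 fold change 0.33, adjusted p = 0.00539, limma). HSPH1, an HSP110 nucleotide exchange factor, rose from 132 ± 6.41 to 181 ± 12.7 TPM (0.30, adjusted p = 0.0138), and HSP90AA1, the inducible HSP90, from 717 ± 27.7 to 1007 ± 109 TPM (0.33, adjusted p = 0.0268), both by limma. The HSP90AA1 call held in 2 of 6 fits that left out 1 library, and its adjusted p reached 0.101 among them. In A549 the log2 differences were -0.22 for DNAJB1, 0.02 for HSPH1 and -0.17 for HSP90AA1 (adjusted p = 0.148, 0.912 and 0.394, limma), and that of HSPH1 turned below zero under some alternatives, to -0.0521 at the lowest. Without A549 Control KD replicate 3 DNAJB1 lay at -0.31 and passed the threshold. The constitutive HSP90AB1 was at 2355 ± 150 against 1924 ± 117 TPM in NCI-H23 (0.14, adjusted p = 0.0739, limma) and 1002 ± 21.4 against 1070 ± 6.84 TPM in A549 (-0.18, adjusted p = 0.195, limma), where it was -0.27 and past the threshold without Control KD replicate 3.

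HSF1 itself was not called in either DKD, at 101 ± 1.72 against 94.2 ± 11.04 TPM in A549 and 142 ± 4.11 against 141 ± 2.27 TPM in NCI-H23, where the scaled log2 difference was -0.15 (adjusted p = 0.073, limma) and was 0.0088 with TPM as deposited. HSF2, its paralog, fell in NCI-H23 from 9.69 ± 1.05 to 6.83 ± 0.648 TPM (-0.65, adjusted p = 0.00161, limma). In A549 it lay at 5.97 ± 0.600 against 5.62 ± 1.40 TPM, a log2 difference of 0.03. HSPA4L, an HSP110 relative, fell in NCI-H23 from 8.13, 7.13 and 7.45 TPM to 3.21, 4.10 and 4.10 TPM (-1.13, SE 0.14, adjusted p = 0.000107, limma), with no overlap, and HSPA4, picked after its values were seen, fell in A549 (-0.38, adjusted p = 0.00504, limma).

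Of the small heat shock proteins, HSPB8, a partner of BAG3 in the clearance of misfolded proteins, rose in the A549 DKD. Its levels were 14.6, 14.4 and 14.1 TPM in the Control KD and 33.2, 31.8 and 33.8 TPM in the DKD, without overlap (log2 fold change 1.11, SE 0.11, adjusted p = 4.74e-05, limma). In NCI-H23 HSPB8 stayed between 0.484 and 1.85 TPM in all libraries and was not called. HSPB1 (HSP27) lay at 621 ± 69.2 against 859 ± 214 TPM in A549 (-0.52, adjusted p = 0.0871) and 510 ± 30.3 against 542 ± 60.9 TPM in NCI-H23 (-0.24, adjusted p = 0.114), both by limma and with overlapping libraries. Without A549 Control KD replicate 3 the A549 value was -0.83 and passed the threshold. HSPB11, which is counted here by its older name and is now called IFT25, fell in NCI-H23 (-0.47, adjusted p = 0.0178, limma), with overlapping libraries.

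**Figure D4:**
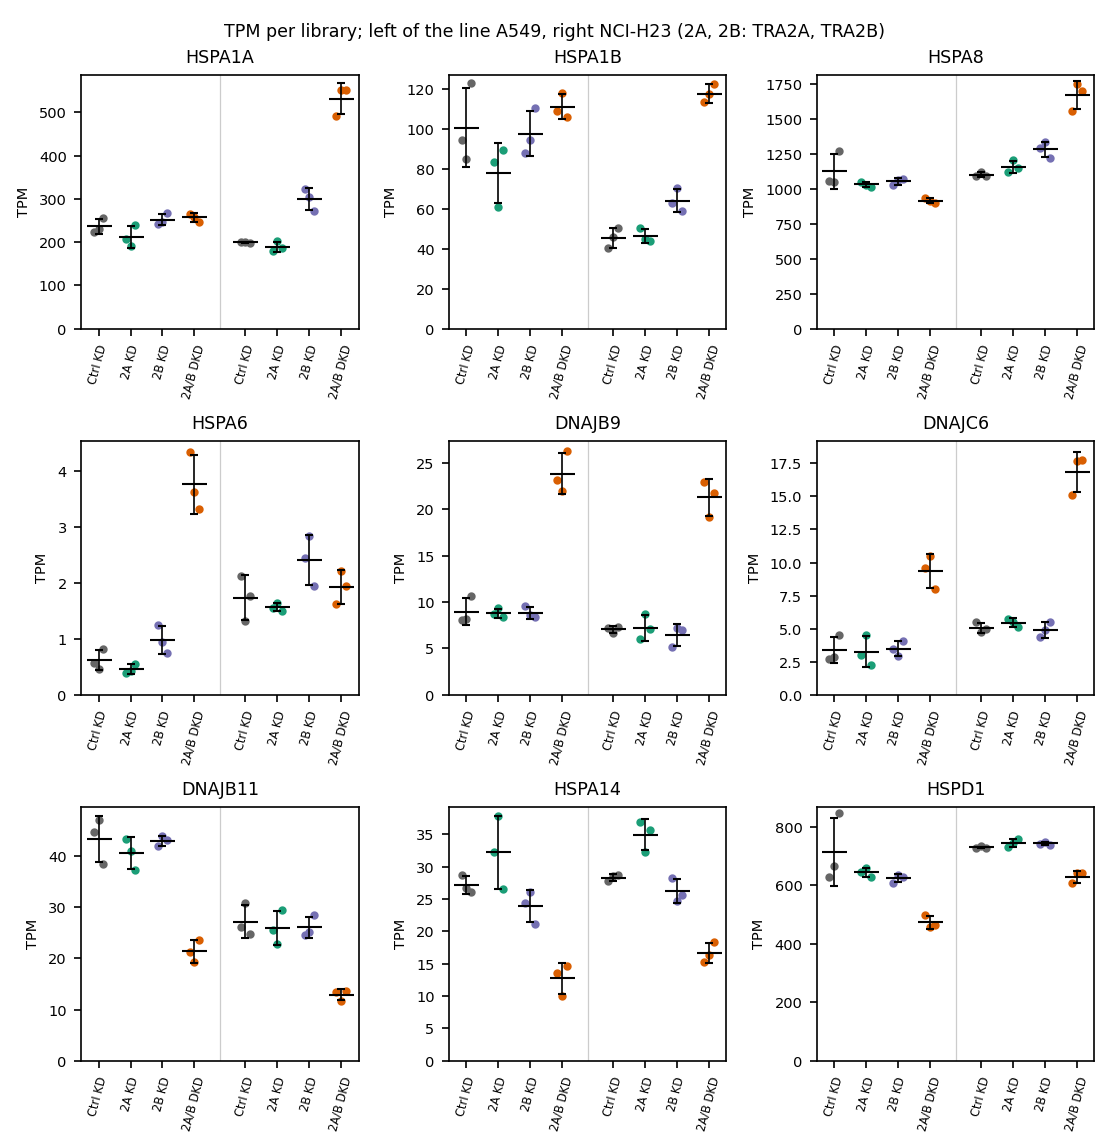
TPM (vertical axis, from 0) of 9 chaperone genes in each of 3 libraries per group (points) with the mean and SD (bars) in A549 (left of the grey line) and NCI-H23 (right). DKD libraries stand clear above the Control KD for HSPA1A and HSPA1B in NCI-H23 and not in A549, for HSPA6 in A549 and not in NCI-H23, and for DNAJB9 and DNAJC6 in both lines, while DNAJB11 and HSPA14 are low in both DKDs.

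Chaperones of the ER moved in both directions within each DKD. DNAJB9 (ERdj4), an induced target of the unfolded protein response that aids ER-associated degradation, rose in both lines, and so did HSPA13 and the membrane J-protein DNAJC25. DNAJB11 (ERdj3), the J-domain partner of the main ER HSP70, and HSP90B1 (GRP94) fell in both. Of the 15 members placed in the ER, 3 were called up and 3 down in A549 and 5 up and 4 down in NCI-H23, not far from the shares of all genes (14.3% and 16.3%, and 20% and 23.2%), and their median log2 fold change was -0.04 and 0.17.

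DNAJB9 lay at 8.05, 8.20 and 10.6 TPM in the A549 Control KD and at 23.2, 22.0 and 26.3 TPM in the DKD (log2 fold change 1.33, SE 0.11, adjusted p = 9.61e-06, limma). In NCI-H23 it lay at 7.20, 6.62 and 7.29 TPM and at 22.97, 19.1 and 21.8 TPM (1.43, SE 0.17, adjusted p = 7.2e-05, limma). The 2 groups stood far apart in both lines, and the calls held in all 6 fits that left out 1 library. HSPA13 rose in A549 from 10.9 ± 2.18 to 26.2 ± 3.61 TPM, and in NCI-H23 from 18.0 ± 0.978 to 32.9 ± 2.46 TPM. DNAJC25 rose from 7.46 ± 0.989 to 17.1 ± 1.41 TPM and from 9.83 ± 0.728 to 19.1 ± 0.471 TPM. A read-through transcript with GNG10 holds 12.4% of the 31-base stretches of DNAJC25. Other named genes share more of theirs with other genes, among them HSP90AB1 (35.7%), DNAJC14 (30.45%), HSP90AA1 (26.4%), HSPA8 (21.4%), HSPE1 (16.2%) and HSPD1 (15.8%).

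DNAJB11 fell from 44.7, 47.0 and 38.4 TPM to 21.3, 19.2 and 23.6 TPM in A549 (log2 fold change -1.10, adjusted p = 0.000243, limma). In NCI-H23 it fell from 26.1, 30.8 and 24.7 TPM to 13.4, 11.7 and 13.7 TPM (-1.22, adjusted p = 6.04e-06, limma). No DKD library reached a control library in either line. HSPA5 (BiP), the HSP70 that DNAJB11 and DNAJB9 serve, rose in NCI-H23 from 222, 233 and 236 TPM to 368, 377 and 384 TPM (0.55, SE 0.05, adjusted p = 1.64e-05, limma). In A549 it lay at 165, 168 and 141 TPM against 221, 205 and 206 TPM, without overlap, and the log2 difference of 0.34 missed the threshold (adjusted p = 0.0659, limma). It lay between 0.16 and 0.43 with 1 library left out, the lowest without Control KD replicate 3, and passed the threshold in 3 of those 6 fits. HSP90B1 fell from 421 ± 42.6 to 285 ± 19.7 TPM in A549 (-0.64, adjusted p = 0.0077, limma). In NCI-H23 it was at 452 ± 39.8 and 405 ± 18.5 TPM (-0.31, adjusted p = 0.00181, limma), with overlapping libraries, and its adjusted p was 0.157 with TPM as deposited (the highest over its alternatives).

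The stretches before the starts of HSPA5 and DNAJB9 are shown because both are well-known ER stress genes and their letters differ. Capitals mark the ER stress element, read as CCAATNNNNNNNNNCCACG or its reverse complement, and in DNAJB9 the only CCAAT. They come from RefSeq on GRCh38.p14, as far as they lie before the Gencode v44 gene, at chr9:125241383-125241593 (minus strand, HSPA5) and chr7:108569624-108569866 (plus, DNAJB9).
HSPA5: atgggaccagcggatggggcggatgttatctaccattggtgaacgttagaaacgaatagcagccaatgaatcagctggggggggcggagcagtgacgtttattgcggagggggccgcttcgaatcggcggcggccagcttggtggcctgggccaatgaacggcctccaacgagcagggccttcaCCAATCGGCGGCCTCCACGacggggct
DNAJB9: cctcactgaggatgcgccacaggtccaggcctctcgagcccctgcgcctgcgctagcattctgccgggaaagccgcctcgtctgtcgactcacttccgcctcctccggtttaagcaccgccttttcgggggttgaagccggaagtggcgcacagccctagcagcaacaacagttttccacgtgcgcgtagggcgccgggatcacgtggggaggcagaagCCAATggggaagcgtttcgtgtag
In the 250 bases before the RefSeq start, HSPA5 held 1 such element and none stood in DNAJB9, while HSP90B1, whose stretch lies inside the Gencode v44 gene, held 2. Of the members with a RefSeq promoter only HSPA5 and HSP90B1 held the letters (2.33% of their promoters, against 0.0769% of all).

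Mitochondrial chaperones also split. HSPA9 (mortalin), the HSP70 of the mitochondrial matrix, rose in A549 from 256, 263 and 328 TPM to 430, 424 and 437 TPM (log2 fold change 0.54, SE 0.07, adjusted p = 0.000291, limma). In NCI-H23 it rose from 294, 328 and 319 TPM to 479, 498 and 541 TPM (0.53, SE 0.05, adjusted p = 1.97e-05, limma). DNAJA3 (TID1), its J-domain partner, rose by less, at 0.33 and 0.39. HSPD1 (HSP60) fell from 629, 665 and 849 TPM to 498, 459 and 464 TPM in A549 (-0.66, adjusted p = 0.000117, limma). It fell from 729, 733 and 728 TPM to 607, 644 and 641 TPM in NCI-H23 (-0.37, adjusted p = 0.000478, limma). For HSPA9 and HSPD1 the groups did not overlap in either line, so the matrix HSP70 was higher and HSP60 lower in the same DKD libraries. HSPE1 (HSP10), the lid of HSP60, was called down in NCI-H23 (-0.44, adjusted p = 0.0359, limma) with overlapping libraries and in 2 of 6 fits that left out 1 library. In A549 its log2 difference was -0.42 (adjusted p = 0.226, limma), and it was -0.73 and past the threshold without Control KD replicate 3.

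Among the remaining J-domain proteins, DNAJC6 (auxilin), which uncoats clathrin vesicles with HSPA8, gave the largest rise of any member in NCI-H23. It went from 5.47, 4.75 and 4.98 TPM to 15.1, 17.7 and 17.8 TPM (log2 fold change 1.56, SE 0.14, adjusted p = 7.17e-06, limma). In A549 it went from 2.72, 2.89 and 4.54 TPM to 9.57, 10.5 and 7.98 TPM (1.39, SE 0.25, adjusted p = 0.00187, limma). Neither pair of groups overlapped. DNAJB2 rose in both lines (0.83 and 0.88), in A549 from 34.4 ± 5.38 to 64.4 ± 2.19 TPM, in NCI-H23 from 39.7 ± 4.21 to 81.2 ± 3.66 TPM, and so did DNAJB4 (0.54 and 0.98). DNAJA2, a housekeeping partner of HSPA8, fell in both (-0.79 and -0.40), as did the mitochondrial member DNAJC11 (-0.55 and -0.46). In A549 DNAJC27 was called up (1.12, adjusted p = 0.0287, limma) and the ER member DNAJC16 down (-0.86, adjusted p = 0.0284, limma). DNAJC16 lay at 9.34, 8.73 and 23.7 TPM in the Control KD and at 7.02, 6.68 and 7.99 TPM in the DKD, so replicate 3 of the control stood far above the rest. Without it the fall was -0.49 (adjusted p = 0.0204), and the call was lost when any DKD library was left out (adjusted p up to 0.118 over its alternatives). In NCI-H23 DNAJC24 was called up (0.87, adjusted p = 0.0117, limma) and the ER member DNAJB12 down (-0.57, adjusted p = 0.00104, limma).

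Partners of the chaperones outside the name rule were read from lists chosen for their roles, with earlier results of these data known, and their counts stand beside 14.3% of all genes called up and 16.3% down in the A549 DKD and 20% and 23.2% in NCI-H23. All 14 subunits of the TRiC chaperonin and prefoldin were tested, which fold actin and tubulin, and 7 fell and 0 rose in the A549 DKD (median log2 fold change -0.38) and 6 fell and 0 rose in NCI-H23 (-0.23), beside medians of 0.03 and 0.02 over all genes. CCT2 fell by 1.09 in A549 and by 0.75 in NCI-H23 on the log2 scale. Of the HSP70 and HSP90 co-chaperones, 2 of 32 rose and 13 fell in A549 and 6 of 31 rose and 17 fell in NCI-H23. BAG2 (-1.47 and -0.92), CHORDC1 (-1.38 and -1.13), FKBP5 (-1.18 and -1.74) and STIP1 (-0.73 and -0.36), which links HSP70 to HSP90, fell in both, and the exchange factor GRPEL2 of mitochondria rose in both (1.42 and 0.60). Of 18 ER folding and unfolded protein response genes, 5 rose and 7 fell in A549 and 7 rose and 8 fell in NCI-H23. The risers in both lines were the regulators DDIT3 (4.57 and 3.05), ATF4 (1.70 and 0.68), XBP1 (1.71 and 0.86) and ATF6 (0.44 and 0.54), and HERPUD1 (1.44 and 2.00), while the folding enzymes PDIA4 (-1.05 and -0.53), PDIA6 (-0.42 and -0.35), PPIB (-0.37 and -0.68) and CALR (-0.76 and -0.27) fell in both. HYOU1 was called down in A549 (-0.44) and up in NCI-H23 (0.47).

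To ask whether the DKD differed from the sum of both single knockdowns on the log2 scale, the sum of the 2 single effects was subtracted from the DKD effect. In A549 7 members lay above the sum and 10 below it (5.84% and 8.89% of all genes), and in NCI-H23 10 and 10 (8.23% and 12.8%). The medians of the members were -0.06 and 0.02, beside -0.05 and -0.01 over all genes. DNAJB9 exceeded the sum by 1.12 in A549 (SE 0.15, adjusted p = 0.000964) and by 1.64 in NCI-H23 (SE 0.24, adjusted p = 0.001), and HSPA13 by 1.02 and 0.79 (adjusted p = 0.00353 and 0.000661), all by limma. HSPA14 lay below it by -1.46 and -1.01 and DNAJB11 by -1.24 and -0.997. These 4 genes held in all 12 fits of each line that left out 1 library. In NCI-H23 DNAJC6 exceeded the sum by 1.60 and HSPA1A by 0.85, HSPE1 lay at -0.87 and HSPA4L at -0.97. In A549 DNAJC25 exceeded the sum by 1.12, while HSPA2 lay at -1.30, HSP90B1 at -0.97 and HSPD1 at -0.58. HSPA6 exceeded it by 1.94 in A549 (adjusted p = 0.0362, limma, and called in 3 of 12 fits that left out 1 library). It was tested there only because it was high in the DKD. HSPB1 lay at -1.01 in A549. In the NCI-H23 DKD the targets were left at 21.5 ± 1.58 TPM (TRA2A) and 23.3 ± 1.20 TPM (TRA2B), against 6.84 ± 0.255 and 9.75 ± 1.45 TPM in the knockdown of each alone. In the A549 DKD they were left at 10.4 ± 0.693 and 22.4 ± 4.72 TPM, against 7.18 ± 2.81 and 13.3 ± 0.856 TPM. The paralog not targeted lay above its control in each single knockdown. Mean TRA2B was 163 against 137 TPM in the A549 TRA2A KD and 136 against 92.2 TPM in NCI-H23. Mean TRA2A was 97.4 against 75.1 TPM in the A549 TRA2B KD and 156 against 105 TPM in NCI-H23. The part of these rises in the departures was not tested. With TPM as deposited the split was 10 above and 4 below in A549 and 11 above and 7 below in NCI-H23, and without A549 Control KD replicate 3 it was 7 and 13. The A549 count of 17 was 9 or 10 when any library of its TRA2B KD or DKD, or TRA2A KD replicate 1, was left out.

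In the TRA2A-dependent glioma line LN319, the TRA2A KO raised 5 ER chaperones and several J-domain proteins. Of 61 members tested, 10 were called up and 4 down, where 6.82% of all genes were called up and 7.44% down, and the median of the members was 0.04 beside 0.01 over all genes. With TPM as deposited 9 were up and 6 down, and the 14 calls were 6 without Luc Control KO replicate 1, 8 without its replicate 3, and 9, 9 and 8 without Luc TRA2A KO replicates 1, 2 and 3. Of the ER members 5 of 15 were called up and 1 down. HSPA5 lay at 357, 385 and 351 TPM in the Luc Control KO and at 480.1, 480.4 and 464 TPM in the Luc TRA2A KO (log2 fold change 0.42, SE 0.05, adjusted p = 0.00032, limma). HSP90B1 lay at 709.8, 763 and 705 TPM and at 855, 838 and 774 TPM (0.22, SE 0.05, adjusted p = 0.0165, limma). In neither gene did the groups overlap. DNAJB9 rose from 8.27 ± 0.664 to 12.4 ± 0.564 TPM (0.62, adjusted p = 0.00108, limma), and 6 of 18 ER folding and unfolded protein response genes outside the name rule rose with it and 0 fell, among them DDIT3 (0.69), HERPUD1 (0.63) and PDIA4 (0.50).

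Outside the ER, DNAJB2 gave the firmest call in the LN319 TRA2A KO, from 88.9, 84.8 and 85.6 TPM to 165, 146 and 179 TPM (log2 fold change 0.95, SE 0.11, adjusted p = 0.000271, limma). DNAJC6 rose from 6.20 ± 0.904 to 10.4 ± 1.67 TPM (0.78, adjusted p = 0.00291, limma) and HSPA9 from 179 ± 4.72 to 211 ± 4.40 TPM (0.27, adjusted p = 0.00517, limma). HSPA6 had the highest log2 fold change, 1.43 (SE 0.36, adjusted p = 0.0206, limma), from 1.19, 1.40 and 1.42 TPM to 3.82, 2.09 and 6.02 TPM. Its 3 knockout libraries were above all controls but spread widely, and the call held in 2 of 6 fits that left out 1 library. HSP90AA1 rose from 978 ± 18.3 to 1115 ± 24.1 TPM (0.23, adjusted p = 0.0333, limma), whereas HSPA1A lay at 190 ± 6.25 against 192 ± 10.1 TPM (log2 difference 0.03, 95% interval -0.08 to 0.14) and DNAJB1 at 106 ± 1.48 against 113 ± 4.77 TPM (-0.05, interval -0.16 to 0.07). HSPA2 (-0.66), DNAJB5 (-0.37), the ER member DNAJC14 (-0.27) and DNAJC17 (-0.20) were called down.

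In LN319 TRA2B-OE cells 2 members were called up after the TRA2A KO and 0 down (1.48% and 1.29% of all genes). DNAJB2 lay at 100.04, 100.4 and 74.6 TPM in the TRA2B-OE Control KO and at 149.8, 141 and 116 TPM in the TRA2B-OE TRA2A KO (log2 fold change 0.63, SE 0.11, adjusted p = 0.016, limma). HSPA5 lay at 374, 361 and 341 TPM and at 406, 407 and 426 TPM (0.26, SE 0.05, adjusted p = 0.0219, limma). Neither pair overlapped, and each call held in 3 of 6 fits that left out 1 library (0 members were called without TRA2B-OE Control KO replicate 3 or TRA2B-OE TRA2A KO replicate 1, and 1 without replicate 1 of the former or replicate 2 of the latter). HSPA6 lay at 1.45, 0.654 and 0.934 TPM and at 1.13, 1.78 and 1.43 TPM, which overlapped. When the TRA2A KO effect in TRA2B-OE cells was tested against that in Luc cells, 0 of 61 members passed (0.0207% of all genes did), and 3 had an unadjusted p under 0.05 by limma. Among all 19303 genes tested, 1527 had such a p-value. For HSPA5 the difference of the effects was -0.16 (SE 0.07, adjusted p = 0.623). The count of 10 and 4 in Luc cells beside 2 and 0 in TRA2B-OE cells is therefore not shown to be a difference between them.

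**Figure D5:**
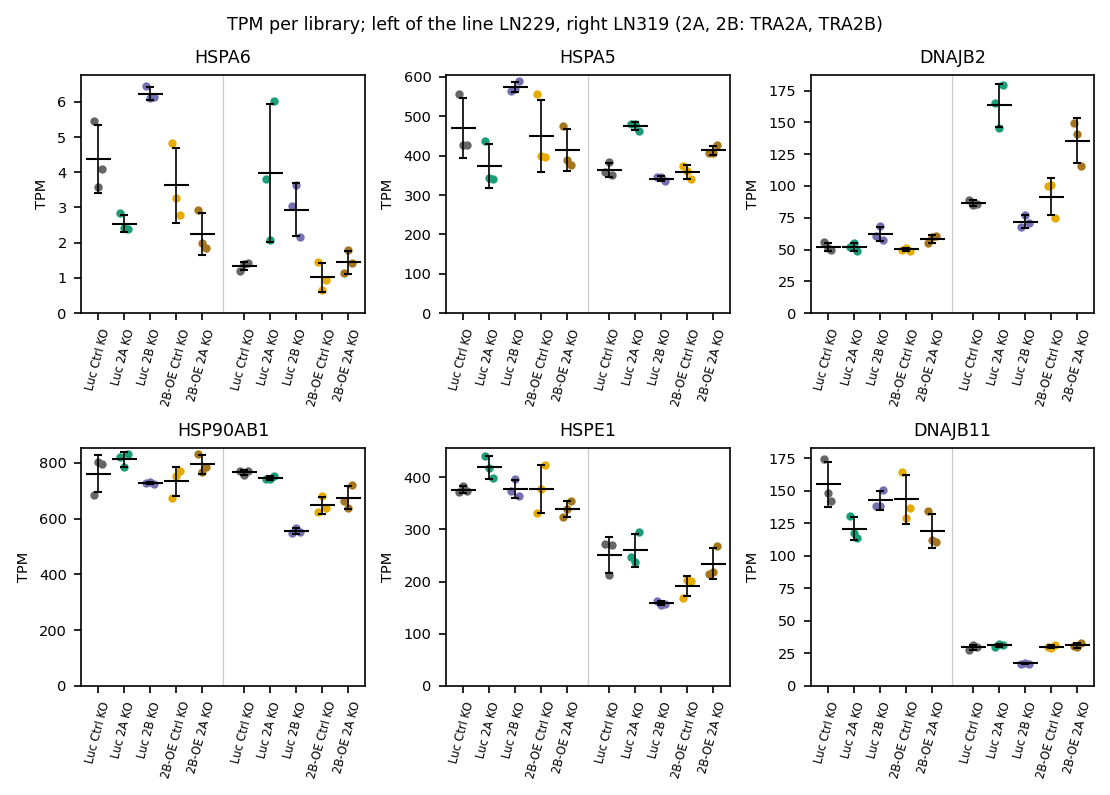
TPM (vertical axis, from 0) of 6 chaperone genes in each of 3 libraries per group (points) with the mean and SD (bars) in LN229 (left of the grey line) and LN319 (right). In LN319, HSPA5 and DNAJB2 are higher in both TRA2A KO groups than in their controls, and HSP90AB1, HSPE1 and DNAJB11 are lowest in the Luc TRA2B KO. In LN229, HSPA5 and DNAJB11 of replicate 1 lie above the other 2 libraries in 4 of 5 groups.

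The LN319 TRA2B KO called the most members of the 14 comparisons, and nearly all of them were down. Of 61 members 35 were called down and 5 up, where 24% of all genes were called down and 18.6% up, and the members' median log2 fold change was -0.23 beside 0.02 over all genes. With TPM as deposited 28 were down and 6 up, with the median of all genes at 0.12. Members called down lay in every class, with 10 of 15 ER members, 4 of 9 mitochondrial, 4 of 8 cytosolic HSP70, 4 of 5 other DNAJB, 2 of 2 other DNAJA, 3 of 3 HSP110, 2 of 2 cytosolic HSP90, 2 of 3 small HSP genes and 1 of 2 heat shock factors called down. Of the 12 other DNAJC genes 3 were down and 2 up, which is near the share of all genes. All 14 TRiC and prefoldin subunits fell as well (median -0.56), and 22 of 32 co-chaperones fell and 1 rose. CRYAB, an alpha-crystallin that is itself a small heat shock protein outside the name rule, fell most among the listed partners, at -1.60.

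HSP90AB1 lay at 769.7, 757 and 772 TPM in the LN319 Luc Control KO and at 547, 567 and 553 TPM in the TRA2B KO (log2 fold change -0.57, SE 0.07, adjusted p = 9.88e-05, limma). HSP90AA1 fell from 978 ± 18.3 to 782 ± 14.4 TPM (-0.43). HSPE1 lay at 272, 212 and 271 TPM and at 162, 156 and 158 TPM (-0.76, SE 0.15, adjusted p = 0.00138, limma). For each of these genes all knockout libraries lay below all controls. DNAJB11 fell from 29.8 ± 1.88 to 17.3 ± 0.385 TPM (-0.89, adjusted p = 1.27e-05, limma), HSPB8 from 36.6 ± 3.35 to 21.8 ± 0.469 TPM (-0.85, adjusted p = 3.18e-05, limma) and DNAJA1, the most abundant DNAJA, from 246 ± 5.96 to 175 ± 3.28 TPM (-0.60, adjusted p = 2.92e-05, limma). The stress-inducible HSPA1A fell by 0.28 and HSPA5 by 0.20, while HSP90B1 lay at 743 ± 32.9 against 726 ± 32.2 TPM (-0.07, adjusted p = 0.283, limma). HSF1 was called down by 0.19 and HSF2 lay at 0.03 (adjusted p = 0.797, limma). The 5 that rose were HSPA6 (0.95, adjusted p = 0.0493, limma, called in 1 of 6 fits that left out 1 library), DNAJC22 (0.69), DNAJC25 (0.40), DNAJC27 (0.38) and DNAJC13 (0.22), of which DNAJC13 was picked after its values were seen.

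Both cytosolic HSP90 genes were called down in LN319 TRA2B-OE cells that received control guides. The Luc and TRA2B-OE cells are separate stable populations, and the study reports strongly lowered TRA2A protein in the latter. What lies behind the difference was not tested. In the TRA2B-OE Control KO against the Luc Control KO 6 members were called down and 0 up, where 2.16% of all genes were called each way, and the median was -0.12 beside -0.02 over all genes. HSP90AA1 lay at 990, 957 and 987 TPM in Luc and 804, 879 and 815 TPM in TRA2B-OE cells (log2 fold change -0.32, SE 0.06, adjusted p = 0.0213, limma). HSP90AB1 lay at 769.7, 757 and 772 TPM and at 625, 682 and 638 TPM (-0.33, SE 0.07, adjusted p = 0.0284, limma). The groups did not overlap for either gene. The ER member HSP90B1 was not called, at 749 ± 17.9 against 726 ± 32.2 TPM (-0.04, adjusted p = 0.658, limma). HSPH1 (-0.30), HSPA8 (-0.27), DNAJB1 (-0.20) and the ER membrane J-protein DNAJB14 (-0.37) made up the rest, with adjusted p between 0.0254 and 0.0495 (limma). The calls of HSP90AA1 and HSP90AB1 held in 3 and 2 of 6 fits that left out 1 library, and with TPM as deposited 1 member was called up and 2 down. The count of 6 was 0 without Luc Control KO replicate 1 or 3 or TRA2B-OE Control KO replicate 1, 2 without Luc Control KO replicate 2 and 3 without TRA2B-OE Control KO replicate 2. The Luc Control KO is also the control of the TRA2A KO and the TRA2B KO, so these 3 comparisons share its 3 libraries.

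In LN229, the TRA2A-independent glioma line, few chaperones were called in the main fit, which holds no term for the replicate number. With such a term more were called in both TRA2A KO comparisons and the TRA2B KO, as given in the last section. The share of all genes called with that term is not given here. The TRA2A KO called 2 of 61 members up and 0 down (1.86% and 1.83% of all genes). HSPA4L lay at 11.3, 12.4 and 14.02 TPM in the Luc Control KO and at 18.7, 16.9 and 17.6 TPM in the Luc TRA2A KO (log2 fold change 0.51, SE 0.11, adjusted p = 0.0325, limma). DNAJC25 rose from 8.18 ± 0.541 to 10.2 ± 0.170 TPM (0.33, SE 0.08, adjusted p = 0.0413, limma). Neither pair overlapped, and both calls were lost without Luc Control KO replicate 1, with log2 fold changes of 0.44 and 0.28, as they were when Luc Control KO replicate 2 or any Luc TRA2A KO library was left out. The TRA2B KO called 0 members (0.568% of all genes), with 15 at an unadjusted p under 0.05 by limma. Without Luc Control KO replicate 1 it called 3 up and 11 down. The share of all genes called in that fit is not given here, so these counts are not shown to be particular to chaperones. The TRA2B-OE Control KO against the Luc Control KO called 0 (1.03% of all genes), with 4 at an unadjusted p under 0.05. Among all 18490 genes tested in LN229, 4302 (TRA2B KO) and 2629 (TRA2B-OE) had such a p-value.

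Several core chaperones of that library lay near the TRA2B KO rather than near its own group. HSP90AA1 lay at 430 TPM in Luc Control KO replicate 1 against 678 and 699 TPM in the other 2, and at 503, 510 and 521 TPM in the TRA2B KO. HSP90B1 lay at 1026 TPM against 793 and 789 TPM, and at 1069, 1065 and 1097 TPM in the TRA2B KO. HSPA5 lay at 557 TPM against 427 and 426 TPM, and at 565, 570.0 and 590.0 TPM. The spread was not that library's alone, since HSPA5, HSP90B1 and DNAJB11 were highest in replicate 1 in 4 of the 5 LN229 groups.

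In LN229 TRA2B-OE cells the library group labelled TRA2A KO had 4 members called up and 2 down (2.43% and 3.64% of all genes), and with TPM as deposited 5 and 1. The small heat shock protein HSPB6 lay at 2.10, 1.97 and 1.79 TPM in the TRA2B-OE Control KO and at 0.579, 0.613 and 0.683 TPM in the TRA2A KO (log2 fold change -1.52, SE 0.26, adjusted p = 0.00687, limma). The groups did not overlap and the levels were near the filter on low values. The 6 calls were 3 without TRA2B-OE Control KO replicate 2 or TRA2B-OE TRA2A KO replicate 2 and 2 without TRA2B-OE TRA2A KO replicate 3. HSPB8 (0.46), DNAJC2 (0.40), DNAJC25 (0.36) and DNAJB4 (0.32) rose and DNAJC14 (-0.24) fell. DNAJC2, which works at the ribosome with HSPA14, lay at 54.7 ± 1.22 and 73.6 ± 3.85 TPM. In the test of the TRA2A KO effect in TRA2B-OE cells against that in Luc cells of LN229, 0 of 61 members passed by limma (0% of all genes did), and 3 had an unadjusted p under 0.05. Among all 18490 genes tested, 1051 had such a p-value.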

How the data were processed

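A table per cell line (4 in all) was deposited with a TPM value per gene and library. Per the labels and the study's methods, the authors sequenced directional poly(A) libraries and quantified them with kallisto 0.48.0, with STAR 2.7.3 also named, against GRCh38. Whether rows were removed before deposit is not given in the sources used here, and TPM keep no depth. Members and lists were chosen with earlier results of these data known.

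The TPM as deposited were scaled between libraries by trimmed means of log ratios (30% and 5% trimmed), filtered at 1 TPM in at least 4 libraries of a line, and fitted as log2(TPM + 0.1) with limma 3.58.1 (trend, R 4.3.3), 1 fit per line with all its libraries, which share 1 estimate of the spread. This replaces no count test, since counts were not analysed here. A pseudocount of 0.1 understates the change of genes with few TPM. P-values were adjusted by Benjamini-Hochberg over all genes of a line, and genes with an adjusted p under 0.05 were called. In all, 14 comparisons and 4 differences of differences were made. Comparisons within a line share control libraries.

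Genes named in the text were the 15 core chaperones, up to 8 called each way with the largest log2 fold change in each DKD, up to 4 each way elsewhere, and members called alike in both DKDs. The scripts were tested on simulated data. Alternatives were a pseudocount of 1, no filter, TPM as deposited, only the groups compared, a replicate block and leaving out each library. Shared 31-base stretches were counted in Gencode v44 transcripts, which need not be the annotation of the files, and promoters came from RefSeq (GRCh38.p14). Proteins were not used here.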

Additional observations from a re-analysis of the deposited data

Results flagged for a closer look

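After scaling libraries to each other, every library of one line lay on one side of its control libraries and every library of the other line on the opposite side in the results below. The difference between the lines was not tested in any of them. In the lung DKDs the log2 fold change of HSPA8 was -0.37 in A549 and 0.44 in NCI-H23. In the glioma TRA2A KO, HSP90B1 lay at -0.36 in LN229 and 0.22 in LN319, and HSPA6 at -0.73 and 1.43. In the TRA2B KO, DNAJB9 lay at 0.28 in LN229 and -0.42 in LN319, and HSPA1A at 0.28 and -0.28. In the TRA2B-OE Control KO, DNAJC25 lay at 0.11 and -0.23 and HSPA4L at 0.25 and -0.22, but in TPM as deposited the libraries overlapped for DNAJC25 in both lines and for HSPA4L in LN319. In the TRA2B-OE TRA2A KO, HSP90B1 lay at -0.37 in LN229 and 0.17 in LN319. Without Luc Control KO replicate 1, which stood apart from its group, the LN229 values were -0.23 for HSP90B1 and -0.57 for HSPA6 in the TRA2A KO, 0.24 for DNAJB9 and 0.29 for HSPA1A in the TRA2B KO, and 0.06 for DNAJC25 and 0.17 for HSPA4L in TRA2B-OE. No LN229 value passed the test with or without it (limma). Without A549 Control KD replicate 3 the HSPA8 value was -0.38.

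The DKD effect differed from the sum of the single knockdown effects, by the test of that difference, for 17 members in A549 and 20 in NCI-H23. Of all genes, 5.84% were called above the sum and 8.89% below it in A549, and 8.23% and 12.8% in NCI-H23.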

How the results depend on the processing

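TPM keep no read depth, so the counting error of low genes could not be set beside their differences. Counts of members called moved most where few were called. With the fit restricted to the groups compared, 0 were called in the LN229 TRA2A KO, the LN229 and LN319 TRA2B-OE TRA2A KO and LN319 TRA2B-OE, and 7 in the LN319 TRA2A KO. Without the filter on low values 11 were called for A549 non-additivity, 2 in the LN229 TRA2B-OE TRA2A KO and 2 in LN319 TRA2B-OE. With TPM as deposited 1 was called in the NCI-H23 TRA2B KD, 1 in the LN229 TRA2A KO and 3 in LN319 TRA2B-OE. Over all genes tested, the deviations of same-numbered samples from their group means correlated by -0.154 to 0.212, with negative values in each line. In LN229 8 of 15 libraries correlated best with one of their own number (5 of 12 in A549, 7 of 12 in NCI-H23 and 5 of 15 in LN319). The labels name no shared batch, so the main fit took the samples to share only a number. Several LN229 chaperones and the glial markers S100B and FABP7 were nevertheless highest in replicate 1, and the cause was not tested. The replicate block gave 11 calls for A549 non-additivity, 10 in the LN229 TRA2A KO, 3 in the LN229 TRA2B KO, 11 in the LN229 TRA2B-OE TRA2A KO and 13 in LN319 TRA2B-OE, and for the other counts it stayed within 1.5 times. Shares of all genes called are those of the main fit throughout. Counts of members under the alternatives are therefore not shown to be particular to chaperones.

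Leaving out 1 library gave 18 to 30 calls in the A549 DKD, 9 to 20 for A549 non-additivity, 29 to 34 in the NCI-H23 DKD and 15 to 25 for NCI-H23 non-additivity. In LN229 it gave 0 to 2 in the TRA2A KO, 0 to 14 in the TRA2B KO and 2 to 5 in the TRA2B-OE TRA2A KO. In LN319 it gave 6 to 11 in the TRA2A KO, 33 to 38 in the TRA2B KO, 0 to 8 in TRA2B-OE and 0 to 2 in the TRA2B-OE TRA2A KO. The largest count of the A549 DKD came without Control KD replicate 3 and that of the LN229 TRA2B KO without Luc Control KO replicate 1. Of the genes named, HSPH1 in the A549 DKD turned to -0.000491 without the filter on low values and ran from -0.0521 to 0.0669 with 1 library left out, HSF2 in the A549 DKD ran from -0.22 (without Control KD replicate 3) to 0.249, and HSF1 in the NCI-H23 DKD turned to 0.0088 with TPM as deposited. None of these 3 was called in the main values. The cause was not tested.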
